A study of Dorcoceras hygrometricum with 14 samples.

Results

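Day 15 of culture was compared with day 10 in pieces of young leaf of Boea hygrometrica, a resurrection plant whose cut leaves can form new shoots. The comparison set the 3 libraries of day 15 (group YL-15d) against the 3 libraries of day 10 (group YL-10d), 6 of the 14 samples of the series. A gene was tested when it reached 1 FPKM, a level scaled to transcript length and to library size, in at least 3 of these 6 libraries. This kept 16297 of the 24110 genes in the table, and 12243 of them carried a named protein from homology.

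Both groups came from wild-collected seed with no genotype, transgene or treatment difference stated. Explants with sides of 0.5 cm were taken from young leaves of sterile plants aged 1 month and laid abaxial side down on medium with 0.1 mg/L 2,4-D, an auxin, and 0.1 mg/L 6-BA, a cytokinin. All explants of days 5, 10 and 15 shared this medium, so the groups differed in time of culture alone, as far as the labels state. About 30 leaf discs were pooled into each biological replicate, and the hour of sampling was not given. The other expression libraries were 3 each of days 0 and 5, and the remaining 2 samples were bisulfite libraries, not analysed here.

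In shoot regeneration from a leaf, cut cells first divide and lose leaf functions, and later form meristems, organised by KNOX and WUSCHEL-related homeobox factors, from which shoots grow. Auxin and cytokinin in the medium drive both phases. Desiccation-tolerant plants protect their tissue with late embryogenesis abundant (LEA) proteins and dehydrins, hydrophilic proteins that shield membranes and proteins during water loss, and with early light-induced proteins, thylakoid proteins that bind free chlorophyll under light stress.

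FPKM summed to between 846672 and 950384 in the day 15 libraries and between 886746 and 970083 in the day 10 libraries, and the read depth behind them is unknown. From 16158 to 16278 genes reached 1 FPKM in the day 15 libraries, against 15531 to 16496 in the day 10 libraries. The third replicate stood apart on both days. Its 2 libraries correlated with each other across genes at a Pearson r of 0.956, above the 0.888 to 0.918 between a library of replicate 3 and the others of its day, whereas replicates 1 and 2 correlated at 0.954 at day 15 and 0.939 at day 10. Same-numbered libraries also deviated together from their day's mean, so gene lists are described by replicate pair as well (replicate 1, 2 or 3 of day 15 minus the same replicate of day 10).

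Leaf genes were strongly expressed throughout: photosystem and light-harvesting genes summed to 9709 to 28190 FPKM at day 15 and 14460 to 49390 FPKM at day 10. Among the 11 markers of stomata in the table, SPEECHLESS, the factor that starts the stomatal lineage, was listed at 0 in all 3 day 15 libraries and in 2 of 3 day 10 libraries, while FAMA, which acts at its end, lay between 6.34 and 10.78 FPKM in all 6. EPIDERMAL PATTERNING FACTOR 2-like had 7.46, 6.05 and 15.66 FPKM at day 15, against 0, 16.83 and 14.18 FPKM at day 10. TOO MANY MOUTHS (F511_06061) had 4.21, 4.49 and 4.92 FPKM at day 15, against 11.71, 4.49 and 6.11 FPKM at day 10. Of the 9 stomatal markers tested, 6 had a positive and 3 a negative log2 fold change. Of 7 phloem markers in the table, SUC2-like was at 0 to 1.26 FPKM at day 15 and 0 to 0.88 FPKM at day 10, whereas PHLOEM PROTEIN 2-LIKE A1-like lay between 41.04 and 111.48 FPKM at day 15 and between 64 and 91.93 FPKM at day 10. Of the root markers, 3 of 5 root markers stayed under 1 FPKM in every library of both days. In bulk tissue, fewer cells of a type and less RNA per cell cannot be told apart.

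No gene passed the threshold between day 15 and day 10. A call needed an adjusted p under 0.05 and a log2 fold change of at least 1, and limma's moderated test made 0 calls among 16297 genes in either direction (0% each), and the lowest adjusted p was 0.18. At an unadjusted p under 0.05, 530 genes (3.25%) were apart, 356 of them higher (2.18%) and 174 lower (1.07%) at day 15. With the replicate number as a block, 0 genes were called either, the lowest adjusted p was 0.159, and 1020 genes (6.26%) had an unadjusted p under 0.05, 600 higher (3.68%) and 420 lower (2.58%). That split depended on scaling: with the block it was 488 higher (2.99%) and 513 lower (3.15%) after median-ratio rescaling, and without the block it was 312 higher (1.91%) and 242 lower (1.48%) after quantile normalisation.

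The differences between these days were small beside those from fresh leaves. The median size of a log2 fold change was 0.177 between day 15 and day 10, against 0.438 between day 15 and day 0. The same fit called 1545 genes (9.48%) between day 15 and day 0, 762 (4.68%) between day 10 and day 0, 8 (0.0491%) between day 15 and day 5, and 0 (0%) between day 10 and day 5. These comparisons share libraries with each other. The median standard error of a gene's log2 fold change was 0.28, and the quartiles of the fold changes themselves were -0.12 and 0.22.

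Without a called gene, the results below are values and counts, not calls. The 3 day 15 libraries all lay above, or all below, the 3 day 10 libraries in 1010 genes (6.2%), 671 higher (4.12%) and 339 lower (2.08%). Of these, 126 (0.773%) were higher at day 15 by at least 1 on the log2 scale and 27 (0.166%) were lower by as much. Among the 126, the day 0 mean lay below the day 10 mean in 74 genes and above the day 15 mean in 10. Among the 27, the day 0 mean lay above the day 15 mean in 21 and below the day 10 mean in 15. Both sets were selected on their day 15 and day 10 values, which itself favours some of these counts. The shares over all genes were not computed, so no conclusion is drawn from where day 0 lay.

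**Figure D1:**
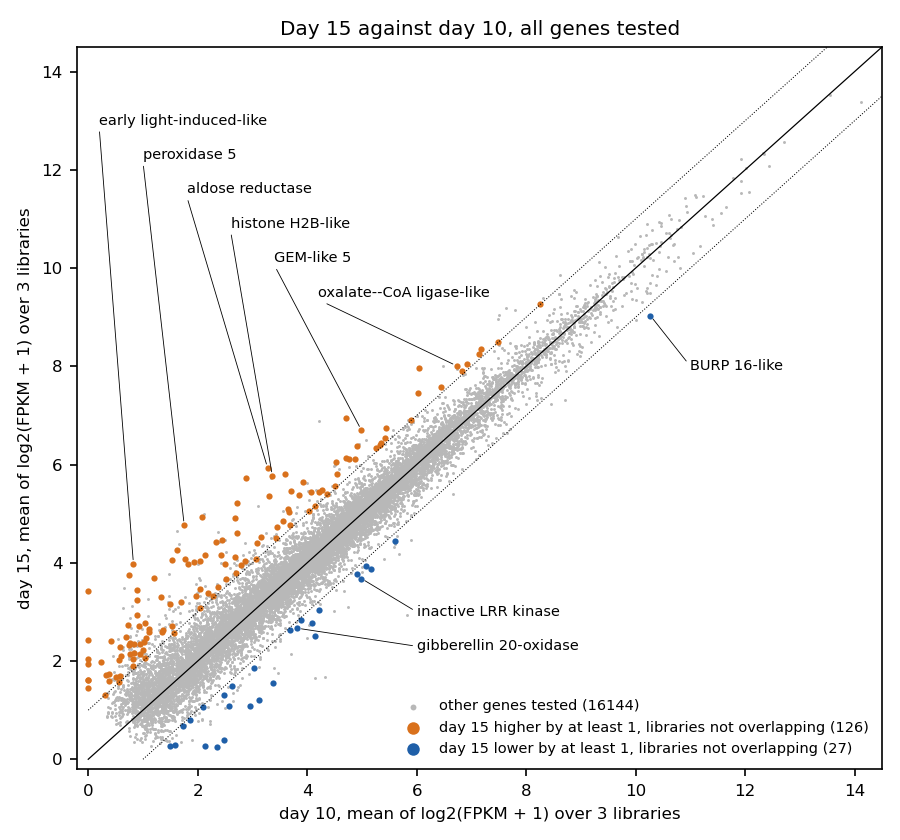
Mean log2(FPKM + 1) of each of 16297 genes at day 15 (vertical axis) and day 10 (horizontal axis), 3 libraries each. The solid line marks equal levels and the dotted lines a log2 difference of 1; orange marks the 126 genes that were higher at day 15 and blue the 27 that were lower, by at least 1 and with no overlap between the libraries of the days, while most genes lie between the dotted lines.

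The gene with the smallest p among named proteins was peroxidase 5 (F511_10035), a class III peroxidase, one of the secreted enzymes that oxidise phenolics in the cell wall. Peroxidase 5 had 19.5, 33.3 and 27.7 FPKM at day 15, against 0.62, 3.38 and 4.4 FPKM at day 10. All day 15 libraries were far above all day 10 libraries, and the gene was low before, at 2.45, 2.36 and 1.33 FPKM at day 5 and 0, 0.2 and 0.41 FPKM at day 0. Its log2 fold change was 3.01 (95% interval 2.07 to 3.95; limma, adjusted p 0.18). The fold change stayed between 2.48 and 3.55 over all 32 alternative settings, with adjusted p from 0.108 to 1.

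Oxalate--CoA ligase-like (F511_06175), an enzyme that starts the breakdown of oxalate in Arabidopsis, followed with 240.1, 288 and 245 FPKM at day 15, against 99.4, 144 and 81 FPKM at day 10. The log2 fold change was 1.28 (95% interval 0.84 to 1.72; limma, adjusted p 0.261). The days did not overlap, but the fresh leaf held 195, 172 and 177 FPKM, and day 5 held 71.3, 69.1 and 58.2 FPKM, so that the level was lowest at day 5 and lay above the fresh leaf at day 15. ENHANCED DISEASE RESISTANCE 2 (F511_10031), a restraint on cell death in Arabidopsis, had 33.2, 53.6 and 43.7 FPKM at day 15, against 13.5, 17.6 and 23 FPKM at day 10 (log2 fold change 1.23, SE 0.21). GEM-like protein 5 (F511_29334) had 84.1, 99 and 131 FPKM at day 15, against 16.3, 35.3 and 49.9 FPKM at day 10 (log2 fold change 1.71, SE 0.32). In each of these genes the lowest day 15 library stood clear of the highest day 10 library.

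Some of the other genes named by the same rule (no overlap, a log2 difference of at least 1 and 10 FPKM on average in the higher day) differed more among their own libraries. EID1-like F-box protein 3 (F511_03688), a relative of an Arabidopsis regulator of abscisic acid responses, had 5.77, 49.8 and 6.03 FPKM at day 15, against 0.89, 0.22 and 1.06 FPKM at day 10. Replicate 2 alone carried most of the day 15 level. Aldose reductase (F511_18825), which reduces sugars to the sugar alcohols that protect cells from water loss, had 45.9, 128 and 36.4 FPKM at day 15, against 2.95, 11.4 and 17.6 FPKM at day 10, and a UDP-glycosyltransferase 73B4-like gene (BGI_novel_G000469), of a family that attaches sugars to small molecules, had 21, 38.4 and 44.5 FPKM at day 15, against 9.56, 8.66 and 18.4 FPKM at day 10. Subunit 26 of Mediator (F511_00947), part of the bridge between transcription factors and RNA polymerase II, had 32.1, 49.9 and 39.2 FPKM at day 15, against 6.83, 4.52 and 21.2 FPKM at day 10. At 40.5, 34.6 and 21.5 FPKM in the fresh leaf, this gene was back near its starting level at day 15. The 12 genes so named had log2 fold changes of 1.13 to 3.15 and adjusted p from 0.18 to 1.00 in limma.

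In the opposite direction the rule named 3 genes. A putative inactive leucine-rich repeat receptor kinase (F511_37245) had 17.2, 13.9 and 6.7 FPKM at day 15, against 45.6, 33.3 and 19.1 FPKM at day 10, with a log2 fold change of -1.31 (SE 0.39). BURP domain-containing protein 16-like (F511_18275), of a plant-specific family of secreted proteins, was among the abundant transcripts of the culture, with 402, 531 and 663 FPKM at day 15, against 943, 2337 and 853 FPKM at day 10. It had been at 116, 156 and 112 FPKM at day 0 and 2633, 2946 and 1821 FPKM at day 5, so its day 15 level lay between the fresh leaf and the peak of early culture. Gibberellin 20-oxidase (F511_08477), which makes the precursors of active gibberellins, had 5.68, 7.35 and 3.6 FPKM at day 15, against 23.9, 12 and 7.72 FPKM at day 10. All 3 genes were lower at day 15 in every library, by 1.15 to 1.31 on the log2 scale, with an adjusted p of 1.00 in limma.

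**Figure D2:**
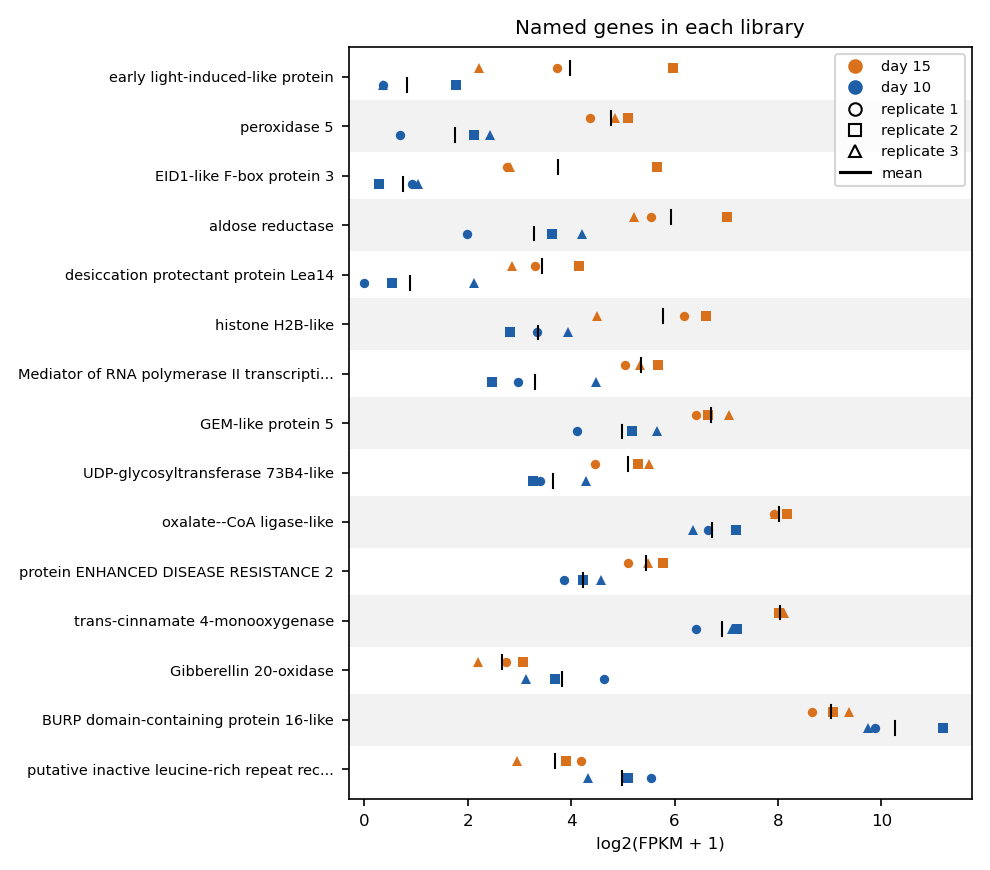
Log2(FPKM + 1) of the 15 genes named by the rule in each library, with day 15 (orange) above day 10 (blue) in each band, symbols for the replicates and a bar for the mean. The top 12 genes have every day 15 library to the right of every day 10 library, and the bottom 3 the reverse.

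LEA proteins and dehydrins lay higher at day 15 in nearly every member. The table held 30 such genes and 27 were tested, of which 26 had a positive log2 fold change, 13 were higher in all day 15 libraries than in all day 10 libraries (background 4.12%) and 0 were lower. limma called 0 of them, and 10 had an unadjusted p under 0.05, as with the block. The median log2 fold change was 0.81, beside 0.051 over all genes tested. It was 0.66, 1.05 and 0.88 in the 3 replicate pairs, and 0.84 on replicates 1 and 2 alone. The list's summed level was 15390, 17790 and 13230 FPKM at day 15, against 12440, 12240 and 9596 FPKM at day 10, with every day 15 library higher.

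Some of the steepest members were scarce in fresh leaves. Desiccation protectant protein Lea14 (F511_44452) had 8.86, 16.7 and 6.29 FPKM at day 15, against 0, 0.45 and 3.36 FPKM at day 10 (log2 fold change 2.55, 95% interval 1.39 to 3.72). An LEA protein of the Dc3 type (F511_04432) had 49, 49.9 and 10.4 FPKM at day 15, against 2.99, 2.4 and 4.53 FPKM at day 10, after 0.57, 0.55 and 3.56 FPKM at day 0. Both were higher in every day 15 library, and in both the third day 15 replicate was the lowest. D-34-like (F511_17223) had 38.5, 80.1 and 53.1 FPKM at day 15, against 8.16, 13.5 and 12.1 FPKM at day 10, and an 18 kDa seed maturation protein-like gene (F511_00520) had 74.9, 246 and 98 FPKM at day 15, against 12.7, 38.2 and 32.9 FPKM at day 10. The seed maturation gene was highest in replicate 2 on both days. D-29 (F511_16650) had 284, 374 and 265 FPKM at day 15, against 130.5, 155 and 137 FPKM at day 10, each day being tight and clear of the other.

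The abundant members dehydrin Xero 1-like and LEA 76-like differed less. Dehydrin Xero 1-like (F511_17762) had 1572, 1704 and 1097 FPKM at day 15, against 798, 1049 and 1256 FPKM at day 10, and replicate 3 alone was lower at day 15. LEA 76-like (F511_06089) had 3014, 3333 and 2169.7 FPKM at day 15, against 3053, 1834 and 1913 FPKM at day 10, with overlapping days and a log2 fold change of 0.34 (SE 0.35). LEA 1-like (F511_06085) was steeper, with a log2 fold change of 1.92. It had 166, 531 and 177 FPKM at day 15, against 56.8, 153 and 31.5 FPKM at day 10. Its lowest day 15 library exceeded its highest day 10 library by a small margin. Several LEA genes share a protein name, and how reads were divided among such copies is not given in the sources used here.

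Early light-induced proteins gave the largest median of the 57 lists. The table held 8 such genes, of which 7 were tested and 4 were higher in all day 15 libraries than in all day 10 libraries (background 4.12%), with 0 lower. Their median log2 fold change was 2.08, with 2.34, 2.89 and 1.54 in the replicate pairs and 2.61 on replicates 1 and 2 alone. Summed over the list, they had 104.5, 233.1 and 49.21 FPKM at day 15, against 18.63, 30.33 and 27.64 FPKM at day 10. Fresh leaves had held 43.7 to 65.3 FPKM, so the day 15 level of replicate 3 was within that range and those of the other replicates above it.

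A chloroplastic early light-induced protein 1-like gene (F511_41258) had 23.9, 27.3 and 5.12 FPKM at day 15, against 3.91, 2.83 and 2.01 FPKM at day 10, and another gene of that name (F511_41257) had 17, 38.7 and 5.43 FPKM at day 15, against 2.31, 4.52 and 0.32 FPKM at day 10. An early light-induced-like gene (BGI_novel_G001588) had 12.3, 61.9 and 3.67 FPKM at day 15, against 0.28, 2.4 and 0.28 FPKM at day 10, with a log2 fold change of 3.15 (95% interval 1.45 to 4.85). In all 3 genes the day 15 libraries were higher than any day 10 library, with the third replicate lowest at day 15. BGI_novel_G000857 had 27.3, 18.5 and 18.8 FPKM at day 15, against 9.64, 11.2 and 0.23 FPKM at day 10, also without overlap. Of the 7 tested, 5 were higher in all 3 replicate pairs (background 16.9%). BGI_novel_G000334 was not among the 5, with 1.56, 5.45 and 12.6 FPKM at day 15, against 1.05, 5.26 and 24.8 FPKM at day 10 and no consistent direction.

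Genes of abscisic acid, the hormone that induces many LEA genes, were less even. The 27 genes tested had a median log2 fold change of 0.25, with pair medians of 0.25, 0.22 and -0.097, so that pair 3 had the opposite sign. Of them, 6 were higher and 0 lower in every replicate pair (background 16.9% and 11.9%), the higher share being near the background, and 0 were without overlap. Protein phosphatase 2C 37 (F511_04960), a brake on abscisic acid signalling that the hormone itself induces in Arabidopsis, had 132, 137 and 99.2 FPKM at day 15, against 44.4, 62.8 and 120.2 FPKM at day 10. Replicates 1 and 2 were higher at day 15 and replicate 3 was lower. Among 12 small heat shock proteins tested, chaperones of stressed cells, the median was 0.41, with pair medians of 0.60, 0.37 and -0.0077, and 1 was higher without overlap (background 4.12%). This 17.3 kDa member (F511_15680) had 129.7, 94.3 and 73 FPKM at day 15, against 48.1, 51.3 and 70.3 FPKM at day 10.

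**Figure D3:**
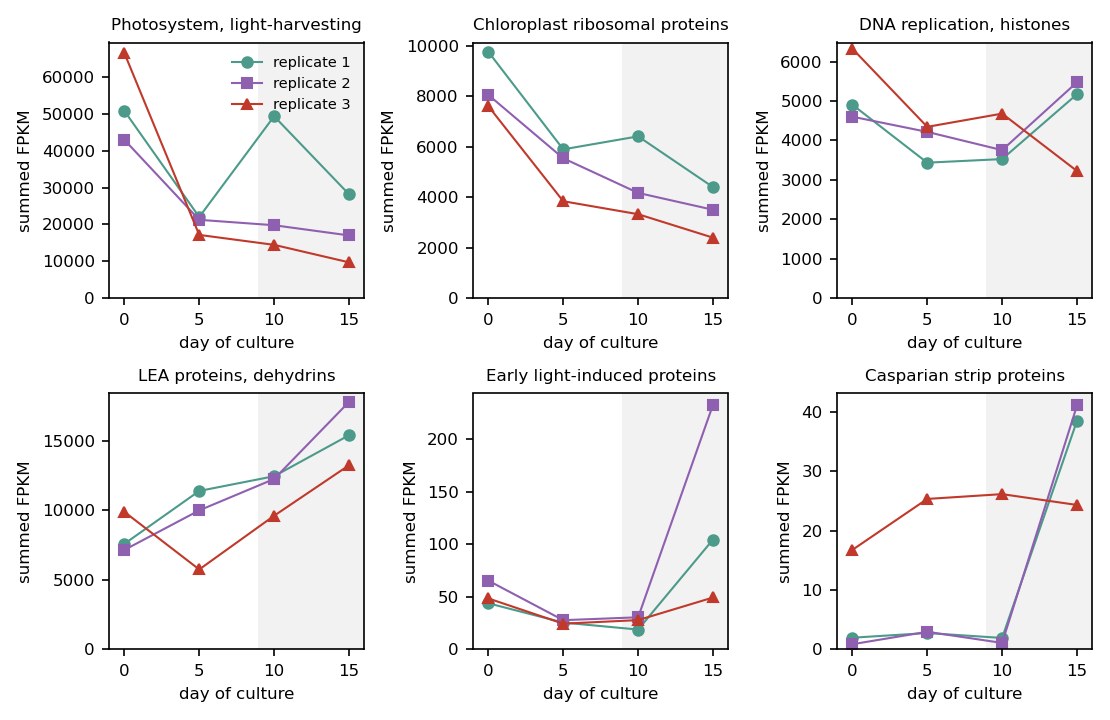
Summed FPKM of 6 gene groups by day of culture (0, 5, 10 and 15), with a line for each replicate and the last interval shaded. LEA proteins and early light-induced proteins end higher at day 15 than at day 10 in all 3 replicates, photosystem and chloroplast ribosomal protein genes end lower in all 3, and DNA replication genes and Casparian strip proteins end higher in replicates 1 and 2 but lower in replicate 3.

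Photosynthesis genes lay lower at day 15 in nearly every member, by amounts within the spread between replicates. The table held 37 photosystem and light-harvesting genes and 34 were tested, of which 33 had a negative log2 fold change, 23 of them in all 3 replicate pairs (background 11.9%). The list's median was -0.55, with -0.80, -0.21 and -0.55 in the pairs. The replicates of a day differed widely. Lower without overlap was 1 gene, a share near the background of 2.08%, and 0 were called. Summed FPKM was 28190, 17020 and 9709 at day 15, against 49390, 19790 and 14460 at day 10, lower in each replicate although the days overlap. The first day 10 library was the highest of all days after day 0, and the list's median on replicates 1 and 2 alone was -0.53.

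Subunit VI-1 of photosystem I (F511_08876) had 1631, 1075 and 611 FPKM at day 15, against 3616, 1563 and 1037 FPKM at day 10, and the light-harvesting protein CP29.1 (F511_02079) had 1024, 772 and 474 FPKM at day 15, against 2415, 1030.2 and 746 FPKM at day 10. Each replicate was lower at day 15 than its partner. Cytochrome b6 (F511_07926), a core subunit of the electron transport chain, was the member without overlap, at 0, 0 and 1.28 FPKM at day 15, against 1.61, 4.18 and 11.7 FPKM at day 10. The exception to the direction was the P700 apoprotein A1 of photosystem I (F511_10980), the plastid-encoded reaction centre protein, at 8.39, 8.52 and 9.18 FPKM at day 15, against 7.42, 5.58 and 5.49 FPKM at day 10. Its day 15 libraries were all above its day 10 libraries.

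The carbon-fixing enzymes went the same way. The 16 Calvin cycle and photorespiration genes tested had a median log2 fold change of -0.43, with pair medians of -0.56, -0.39 and -0.39, and 12 were lower and 0 higher in all 3 replicate pairs (background 11.9% and 16.9%). The small chain of rubisco (F511_34498), the enzyme that fixes carbon dioxide, had 16787, 10540 and 6767 FPKM at day 15, against 32446, 16147 and 10554 FPKM at day 10. It was lower at day 15 in each replicate, with a log2 fold change of -0.74 (SE 0.47). Chlorophyll synthesis genes, 21 tested, had a median of -0.35, with pair medians of -0.47, -0.15 and -0.31. Of them, 13 were lower in all pairs (background 11.9%) and 3 without overlap (background 2.08%). Chlorophyll synthase (F511_29040), which attaches the phytol tail, had 66.7, 65 and 58.1 FPKM at day 15, against 86.6, 80.7 and 70.7 FPKM at day 10, a small difference with tight libraries.

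Transcripts of chloroplast ribosomal proteins, the parts of the machine that makes protein in the plastid, lay lower at day 15 in most members. The 37 chloroplast ribosomal proteins tested had a median log2 fold change of -0.41, with pair medians of -0.48, -0.19 and -0.45 and with 23 lower and 1 higher in all replicate pairs (background 11.9% and 16.9%), but 1 was lower without overlap (background 2.08%). Their summed level was 4397, 3500 and 2394 FPKM at day 15, against 6409, 4168 and 3324 FPKM at day 10. With the replicate block, 15 of the 37 had an unadjusted p under 0.05 and were lower (background 2.58%), against 0 without it, and 0 were called in either fit. Ribosomal protein S9 of the small subunit (F511_01070) had 184, 155 and 136 FPKM at day 15, against 257, 218 and 169 FPKM at day 10. The 128 cytosolic ribosomal proteins tested shifted less, with a median of -0.095, pair medians of -0.042, -0.015 and -0.21, and 11 lower without overlap (background 2.08%). Over 849 tested genes described as chloroplastic, a group chosen after the values were seen, 613 had a negative log2 fold change and 327 were lower in all 3 pairs (background 11.9%), while 59 were higher in all (background 16.9%).

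Some genes of phenolic metabolism lay higher at day 15. The 39 phenylpropanoid and lignin genes tested had 4 members higher without overlap and 0 lower (background 4.12% and 2.08%), and 12 higher in all replicate pairs against 2 lower (background 16.9% and 11.9%), with a median log2 fold change of 0.17 and pair medians of 0.39, 0.19 and -0.0099. Trans-cinnamate 4-monooxygenase (F511_14518), which hydroxylates cinnamate early in the pathway, had 254, 259 and 276 FPKM at day 15, against 84.9, 146 and 138 FPKM at day 10. Its day 15 libraries lay close together and its log2 fold change was 1.13 (95% interval 0.61 to 1.65; limma, adjusted p 1.00). Phenylalanine ammonia-lyase (F511_06338), the entry enzyme, had 242, 289 and 484 FPKM at day 15, against 51.8, 236 and 238 FPKM at day 10, with no overlap only by a margin of a few FPKM. Cytochrome P450 98A3 (BGI_novel_G001099), which adds a later hydroxyl group, had 487, 431 and 517 FPKM at day 15, against 192, 345 and 346 FPKM at day 10, again with the first day 10 library lowest. 4-coumarate:CoA ligase 3 (F511_14479) had 117, 149 and 162 FPKM at day 15, against 48.7, 129.9 and 95.9 FPKM at day 10, overlapping between the days. Cinnamoyl-CoA reductase 1-like (F511_27485), on the branch to lignin, was lower at day 15 in each replicate, with 5.48, 5.94 and 8.21 FPKM at day 15, against 15.6, 7.42 and 10.9 FPKM at day 10. Another gene of that name (F511_32829), among the 4 without overlap, was higher at day 15 (log2 fold change 0.27).

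Enzymes that act on these phenolics in the wall included 46 tested class III peroxidases, of which 6 were higher and 1 was lower without overlap (background 4.12% and 2.08%). Besides peroxidase 5, peroxidase 16 (F511_44926) had 11.9, 6.29 and 9.75 FPKM at day 15, against 2.75, 4.5 and 1.86 FPKM at day 10, and peroxidase 47-like (F511_38627) had 207, 232 and 174 FPKM at day 15, against 110.5, 154 and 166 FPKM at day 10. Peroxidase 63 (F511_03166) was the lower member, with 29, 19.7 and 22.4 FPKM at day 15, against 47.5, 32.1 and 36.9 FPKM at day 10. The list as a whole had a median of 0.095, near that of all genes, and pair medians of 0.35, -0.024 and 0.14. Laccase-3-like (F511_04826), which couples lignin precursors, was scarce, at 2.34, 7.33 and 1.36 FPKM at day 15, against 0.33, 0.11 and 1.21 FPKM at day 10. Flavonoid and anthocyanin genes, 63 tested, had 4 higher and 0 lower without overlap, near the background of 4.12% and 2.08%, and pair medians of 0.55, 0.26 and -0.077. One of the 4 was anthocyanidin 3-O-glucoside 2'''-O-xylosyltransferase (F511_38733), which decorates anthocyanins, at 311, 343 and 422 FPKM at day 15, against 132, 277 and 242 FPKM at day 10.

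Genes that loosen or rebuild the wall differed in single members. Of 28 expansin and xyloglucan endotransglucosylase genes tested, 2 were lower and 0 higher without overlap (background 2.08% and 4.12%), and the pair medians were 0.22, -0.15 and -0.36. Expansin-A10 (F511_20904), of the family that lets walls stretch, had 47.7, 11 and 17.3 FPKM at day 15, against 138, 45.8 and 31.5 FPKM at day 10, lower in each replicate although the days overlap. Alpha-expansin 8 (F511_18587) had 67.6, 36.3 and 66.3 FPKM at day 15, against 148, 78 and 70.3 FPKM at day 10, and here the highest day 15 library lay just under the lowest day 10 library. Of 59 pectin enzyme genes tested, 1 was higher and 0 lower without overlap, a share under the background of 4.12% and 2.08%. This putative pectinesterase/pectinesterase inhibitor 34-like gene (F511_20601) was scarce, at 2.99, 4.7 and 10.1 FPKM at day 15, against 1.08, 1.38 and 1.04 FPKM at day 10. The 92 cuticle and wax genes tested had a median log2 fold change of 0.26, with pair medians of 0.30, 0.28 and -0.045. Of them, 23 were higher and 3 lower in all replicate pairs (background 16.9% and 11.9%), and 2 were higher and 0 lower without overlap, a share under the background of 4.12% for higher genes.

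Hormone genes differed in single members. Of 28 auxin transport and synthesis genes tested, 3 were higher and 1 was lower without overlap (background 4.12% and 2.08%). The higher ones were WAT1-related genes F511_11403 and F511_19706 (log2 fold changes 1.07 and 1.18) and tryptophan aminotransferase-related protein 2 (F511_18081, 0.34). The lower one was auxin efflux carrier 7-like (F511_23545), a PIN-type exporter (log2 fold change -0.77, SE 0.23). It had 37.5, 18.8 and 28.1 FPKM at day 15, against 60.7, 41.6 and 41.3 FPKM at day 10. Allene oxide synthase (F511_01073), an early enzyme of jasmonate synthesis, was lower as well, at 41.5, 50 and 44.2 FPKM at day 15, against 79.1, 86.7 and 62.3 FPKM at day 10, and allene oxide cyclase (F511_06356), the next enzyme, had 125, 118 and 76.8 FPKM at day 15, against 288, 271 and 113 FPKM at day 10, lower in each replicate with overlap between the days. The medians of the auxin transport, jasmonate and gibberellin lists were 0.012, 0.079 and 0.020; the auxin and gibberellin medians turned negative after rescaling and after quantile normalisation. In all 3 lists the medians of pairs 1 and 2 were positive and that of pair 3 was negative, at -0.24, -0.13 and -0.29.

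Of 32 tested genes in the cytokinin list, 4 were higher and 2 lower without overlap (background 4.12% and 2.08%), and the pair medians were 0.25, 0.23 and -0.075. Cytokinin dehydrogenase 7 (F511_15672), which breaks the hormone down, was lower at day 15, at 18.9, 20.5 and 21.9 FPKM at day 15, against 31, 27.8 and 22.5 FPKM at day 10. Cytokinin oxidase/dehydrogenase-like 5 (F511_03425), of the same function, had 4.5, 5.63 and 10.4 FPKM at day 15, against 0.98, 1.14 and 16.3 FPKM at day 10, higher in replicates 1 and 2 and lower in replicate 3. ARR5-like (F511_23275), a response regulator that cytokinin induces in Arabidopsis, had 36.6, 24.4 and 30.5 FPKM at day 15, against 117, 76 and 22.6 FPKM at day 10, the reverse of that split. The response regulator ARR11-like (F511_01603) was higher without overlap, at 11.6, 12.2 and 13.5 FPKM at day 15, against 5.88, 9.57 and 10.8 FPKM at day 10. The members with the steepest positive values were the pseudo-response regulators APRR5 and APRR3, which serve the circadian clock and not cytokinin signalling. The remaining member higher without overlap (F511_04402) was described as a probable E3 ubiquitin-protein ligase. The count of 4 higher members therefore rests mostly on genes of other functions. The 2 lower members were cytokinin dehydrogenase 7 and histidine kinase 4 (F511_23616), with log2 fold changes of -0.38 and -0.21. Outside the list, a two-component sensor histidine kinase (F511_13050) was lower at day 15 without overlap, at 9.52, 10.8 and 10.8 FPKM at day 15, against 24.3, 20 and 14.9 FPKM at day 10, and gibberellin 20-oxidase 1 (F511_07244) was lower in each replicate, at 22.7, 28.4 and 10.6 FPKM at day 15, against 113, 61.5 and 14.4 FPKM at day 10.

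Transcription factor families and the cell cycle showed how far the replicates disagreed. Across the 16297 genes, the log2 differences of pair 1 correlated with those of pair 2 at a Pearson r of 0.27, with those of pair 3 at 0.037, and pairs 2 and 3 at -0.10. These are descriptions over genes of the same libraries. Of 393 genes that were higher by at least 1 in pairs 1 and 2, 44 were so in pair 3, 109 were higher by less, and 240 were equal or lower, 79 of them lower by at least 1. At least 1 log2 unit separated 1426 genes upward in pair 1 and 1012 in pair 2, against 383 in pair 3, which had 954 downward.

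The 39 tested genes of DNA replication and histones, needed when cells copy their chromosomes, had medians of 0.45 and 0.57 in pairs 1 and 2 and of -0.73 in pair 3. Over all libraries their median was 0.058, and it was -0.0012 after quantile normalisation. Their summed level was 5174, 5478 and 3224 FPKM at day 15, against 3527, 3754 and 4681 FPKM at day 10. A histone H2A-like gene (F511_31221) showed this plainly, at 714, 773 and 383 FPKM at day 15, against 368, 429.6 and 695 FPKM at day 10. Histone H2B-like (F511_05240) did not share it: this gene had 72, 96.7 and 21.7 FPKM at day 15, against 9.07, 6.03 and 14.4 FPKM at day 10, after 0.5, 0.49 and 2.05 FPKM at day 0, and all day 15 libraries were higher. The 100 cyclin, mitosis and cytokinesis genes had pair medians of 0.40, 0.14 and -0.28.

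WRKY factors, regulators of defence and senescence, followed the same split. The 56 tested had medians of 0.53 and 0.55 in pairs 1 and 2 and of -0.35 in pair 3, with 1 gene higher without overlap (background 4.12%). ERF and CBF factors, 62 tested, gave 0.32, 0.51 and -0.55, although ERF061 (F511_07364) was higher in every day 15 library, at 75.3, 76.8 and 110.4 FPKM at day 15, against 24.8, 39.7 and 62.9 FPKM at day 10. NAC factors, 39 tested, were more even, with pair medians of 0.51, 0.25 and 0.10, 6 genes higher without overlap and 0 lower (background 4.12% and 2.08%). NAC21/22 (F511_16823), which in Arabidopsis passes auxin signals to lateral root formation, had 27.9, 39.5 and 37.4 FPKM at day 15, against 9.47, 23.5 and 20.4 FPKM at day 10, and an unnumbered NAC gene (F511_14966) had 35, 58.7 and 48 FPKM at day 15, against 9.31, 32.9 and 33.3 FPKM at day 10. For both, the first day 10 library was the lowest of the 6.

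**Figure D4:**
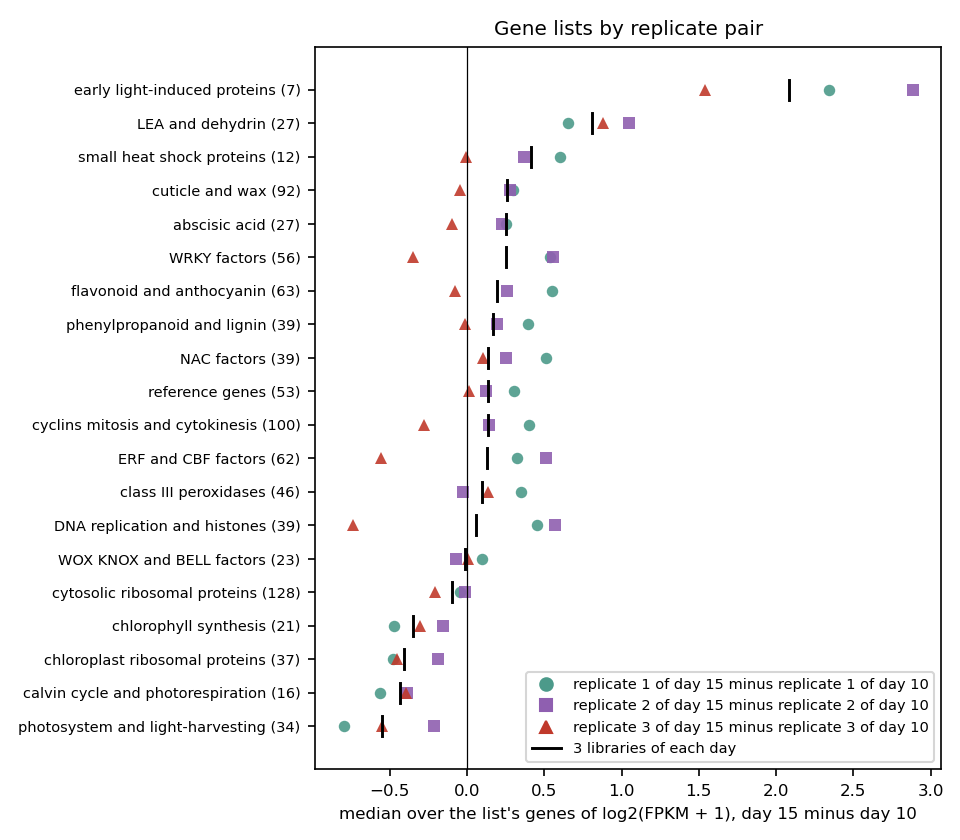
Median log2 difference (day 15 minus day 10, horizontal axis) of 20 gene lists in each replicate pair (symbols) and over the 3 libraries of each day (bar), with the number of genes tested in brackets. Early light-induced proteins and LEA proteins lie right of 0 in all 3 pairs and the 4 chloroplast lists at the bottom lie left of 0 in all 3, whereas WRKY factors, ERF factors, cyclins and DNA replication genes lie right of 0 in pairs 1 and 2 and left of 0 in pair 3.

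Fitted to replicates 1 and 2 alone, limma gave 19 called genes that were higher (0.117%) and 1 that was lower (0.00614%) at day 15. With the replicate block and without the third day 15 library it gave 6 (0.0368%), among them genes of Casparian strip, dirigent and peroxidase proteins. Of the 19, 10 kept their direction in pair 3, and 10 had no overlap over all 6 libraries (background 4.12%). The count without overlap reuses the libraries of replicates 1 and 2 that selected the 19. The selection itself favours it, so no conclusion is drawn from it. In 17 of the 19, replicate 3 of day 10 exceeded both other day 10 libraries. In 13, replicate 3 of day 0 exceeded both other day 0 libraries. Because the 19 were selected for low day 10 values in replicates 1 and 2, the selection itself favours the counts at day 10. The shares of all genes with replicate 3 above the others were not computed, so no conclusion is drawn from the 17 and the 13. The 1 lower gene, beta-glucosidase 40-like (F511_11189), had 12, 11.8 and 52.2 FPKM at day 15, against 65.6, 41.2 and 40.5 FPKM at day 10, and was higher in replicate 3. The genes below were chosen after their values were seen.

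Casparian strip membrane proteins, which lay out the sealed wall belt of the root endodermis, were among them. The log2 fold change was above 0 in all 5 members tested, and the group's pair medians were 2.83, 3.11 and 0.11. Casparian strip membrane protein 3-like (F511_23053) had 21.4, 20.9 and 13.4 FPKM at day 15, against 1.2, 0 and 12.4 FPKM at day 10, and the member named protein 1 (F511_15850) had 9.61, 7.64 and 3.34 FPKM at day 15, against 0, 0 and 3.84 FPKM at day 10. Replicates 1 and 2 were near 0 until day 10 and then high, whereas replicate 3 held protein 3-like at 5.94 FPKM at day 0, 13.09 FPKM at day 5 and 12.36 FPKM at day 10, so that its level at day 15 was little different. Summed over the list, the level was 38.57, 41.15 and 24.34 FPKM at day 15, against 1.88, 1.04 and 26.17 FPKM at day 10, and the third library held 16.75 FPKM at day 0.

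Dirigent proteins, which guide the coupling of phenolic radicals, and peroxidases gave the same picture in some members. Dirigent protein 24-like (F511_01764) had 28.8, 27.2 and 9.8 FPKM at day 15, against 0.16, 0.64 and 15.4 FPKM at day 10, and a dirigent 18-like gene (F511_31842) had 13.9, 13.2 and 3.15 FPKM at day 15, against 0.26, 0 and 6.74 FPKM at day 10. A peroxidase superfamily gene (F511_01022) had 39.2, 38.9 and 8.8 FPKM at day 15, against 0.34, 0.35 and 14.9 FPKM at day 10, after 1.18, 1.95 and 15.1 FPKM at day 5. In all 3 genes, replicates 1 and 2 were close to 0 at day 10 and far higher at day 15, and replicate 3 was already high at day 10 and lower at day 15. The 21 dirigent genes tested were mixed as a list, with 14 positive and 7 negative log2 fold changes and pair medians of 0.72, 0.086 and -0.23.

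Single regulators of meristems and organ boundaries showed the same picture. KNAT2-like (F511_01309), a KNOX homeobox factor of the shoot meristem, had 13.4, 18.4 and 19.4 FPKM at day 15, against 0.62, 3.64 and 45.9 FPKM at day 10. Replicate 3 had held 7.23 FPKM at day 0 and 23.01 FPKM at day 5, while replicates 1 and 2 stayed between 0 and 0.77 FPKM on those days. Another KNOX gene, knotted-1-like 6 (F511_01623), had 6.29, 3.34 and 6.82 FPKM at day 15, against 0.37, 1.86 and 12.5 FPKM at day 10. CUP-SHAPED COTYLEDON 2 (F511_05080), which sets organ boundaries and helps start the shoot meristem, had 5.14, 5.42 and 5.33 FPKM at day 15, against 1.24, 1.61 and 12.7 FPKM at day 10. WUSCHEL-related homeobox 11-like (F511_04159), whose Arabidopsis relative starts new roots from cut leaves, had 6.51, 7.46 and 9.26 FPKM at day 15, against 1.96, 1.32 and 11.6 FPKM at day 10. For each of these 4 genes, the third replicate was the highest at day 10 and lower at day 15, and the 3 libraries of day 15 lay closer together than those of day 10.

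The lists these regulators belong to had medians near 0. The 23 WOX, KNOX and BELL factors tested had a median log2 fold change of -0.012, with pair medians of 0.095, -0.073 and 0.005, and 0 members without overlap. The 34 organ boundary and polarity genes tested had a median of 0.014 and pair medians of 0.015, 0.068 and -0.48. LOB domain protein 42-like (F511_18445) had 125, 95.7 and 70.2 FPKM at day 15, against 43.8, 24.9 and 86.6 FPKM at day 10, and SCARECROW (F511_43618), a factor of the root endodermis and the leaf bundle sheath, had 18.2, 15.4 and 15.1 FPKM at day 15, against 12.7, 5.72 and 23.6 FPKM at day 10, both higher in replicates 1 and 2 and lower in replicate 3. Of the 34 organ boundary and polarity genes, 1 was higher and 1 lower without overlap (background 4.12% and 2.08%). The higher one was TCP12-like (F511_39434), a factor of bud outgrowth, at 4.46, 4 and 6.68 FPKM at day 15, against 1.11, 1.55 and 3.74 FPKM at day 10. The lower one was YABBY 5 (F511_31717), with a log2 fold change of -0.66. What set the third replicate apart was not tested.

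**Figure D5:**
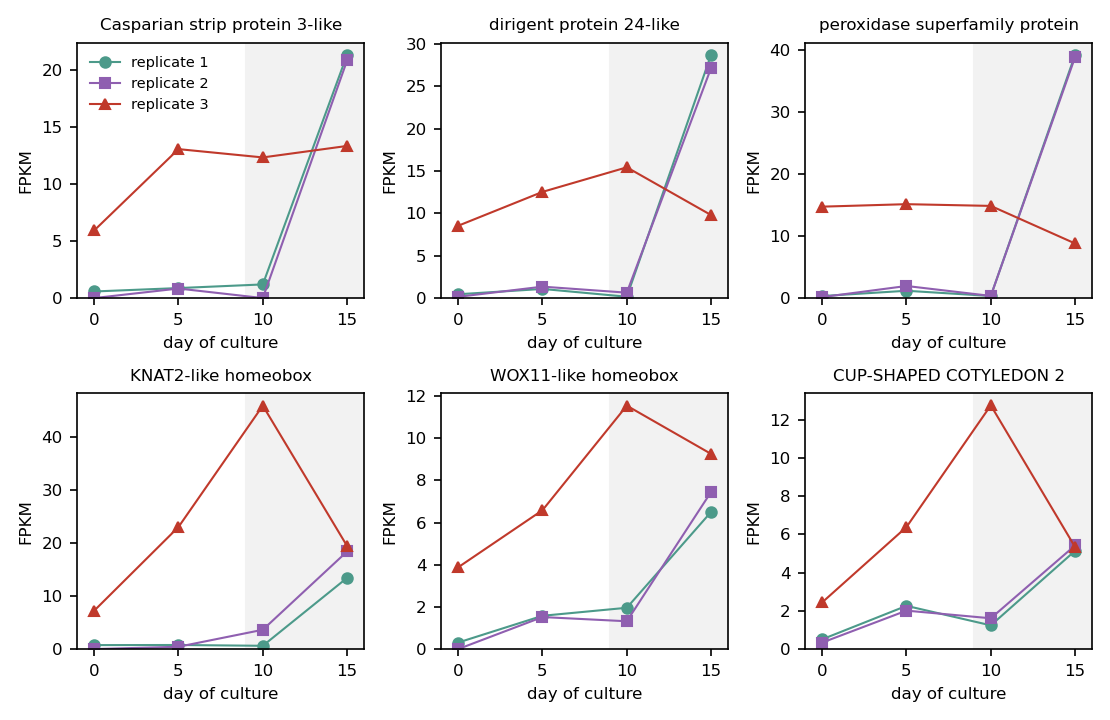
FPKM of 6 genes by day of culture (0, 5, 10 and 15), with a line for each replicate and the last interval shaded. Replicate 3 is the highest at days 0, 5 and 10 in all 6 genes, and replicates 1 and 2 are higher at day 15 than on any earlier day.

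Markers of other tissues were set beside these values. The 5 root markers in the table, of which 1 SHORT-ROOT and 1 SCARECROW gene were tested, summed to 34.48, 34.8 and 29.2 FPKM at day 15, against 21.53, 18.98 and 41.93 FPKM at day 10, so they too were higher in replicates 1 and 2 and lower in replicate 3. Xylem cysteine protein 1-like (F511_04474), the only xylem marker in the table, had 13.5, 9.95 and 25.7 FPKM at day 15, against 7.77, 6.9 and 8.41 FPKM at day 10, higher in every day 15 library. Phloem markers summed to 164.5, 181.4 and 83.15 FPKM at day 15, against 144, 142.4 and 109.1 FPKM at day 10, and epidermis markers to 98.5, 59.2 and 114 FPKM at day 15, against 81.79, 60.81 and 118.6 FPKM at day 10. The 3 trichome markers summed to 113, 118.7 and 111.3 FPKM at day 15, against 88.62, 83.51 and 103 FPKM at day 10, with every day 15 library higher. Stomata markers summed to 42.86, 50.94 and 57.75 FPKM at day 15, against 44.53, 54.06 and 57.47 FPKM at day 10. The part of tissue makeup in the results above was not tested.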

How the data were processed

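Expression values are FPKM as deposited by the authors, per the file headers, 1 value per gene and library. Of the tools in the submitters' processing notes (Bowtie2 2.2.5, BSMAP, HISAT and StringTie 1.0.4), none is tied to a file. The genome build and annotation are not given in the sources used here. Counts were not used here, and the depth is unknown. Columns were matched to samples by day and replicate letter (a, b, c as replicates 1, 2, 3), and 8 other columns of per-sample values were not used. The deposited methylation tables were not used.

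Log2(FPKM + 1) was fitted in limma 3.58.1 (R 4.3.3, statmod 1.5.0) with a mean per day over all 12 expression libraries, a trend and robust variances, over genes with at least 1 FPKM in 3 of the 6 libraries compared. Tests were two-sided, with Benjamini-Hochberg adjustment over 16297 genes. The fit was tested on simulated data with known changes. Fold changes are on the log2(FPKM + 1) scale and understate those of low genes, and an exact 0 may be a failed estimate. P-values measure the spread between the pooled explant samples.

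Same-numbered libraries deviated together from their day's mean (Pearson r across genes 0.47, 0.23 and 0.50, against -0.46 to 0.05 for other pairings), so the replicate block was also fitted. Gene lists, 57 in all, are text patterns on homology descriptions, so a list can hold genes of another function. Members and lists were chosen with earlier results of these data known. Genes named by rule had no overlap between days, a log2 fold change of at least 1, at least 10 FPKM on average in the higher day and a named protein, up to 12 per direction by unadjusted p, plus the member of each list with the smallest p. Other genes, with 4 added groups, were chosen after their values were seen. Alternatives changed the pseudocount, filter, scaling, variance model, samples and block.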

Additional observations from a re-analysis of the deposited data

How the results depend on the processing

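With 32 alternatives to the fit reported, 28 gave 0 called genes in both directions. The exceptions were 19 genes higher and 1 lower on replicates 1 and 2 only, 1 higher with no filter on low values, and 1 higher with no trend and no robust variances. Leaving out 1 library at a time, with or without the replicate block, gave 0 to 6 genes called higher and 0 called lower, the 6 coming without the third day 15 library under the block. With the replicate block on all libraries, 0 genes were called higher and 0 lower. The paired fit with rescaling or quantile normalisation, chosen after seeing the data, gave 0 called as well.

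The number of genes with an unadjusted p under 0.05 depended on single libraries. It was 530 with all libraries and ran from 259 without the first day 10 library to 1264 without the third day 10 library. The lowest adjusted p ran from 0.003272 to 1 over the alternatives. Among named genes, 2733 alternative values kept their direction and side of the threshold, 28 passed it, and 1 reversed: an AP2-like factor (F511_07332) had a log2 fold change of -0.068 under the block without the first day 10 library, 0.79 without the third, and 0.41 as reported. The cause was not tested.

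The read depth is unknown, and the tests rest on 3 replicates a day, of which 1 stood apart.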

Other observations

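Sugar and nitrogen genes held several members whose day 15 libraries all lay above their day 10 libraries, chosen here after their values were seen. Sucrose synthase 2 (F511_16986), which splits sucrose for use in growing tissue, had 88.6, 106 and 132 FPKM at day 15, against 43.8, 59 and 69.6 FPKM at day 10, after 4.67, 5.96 and 18.7 FPKM at day 0. Sucrose transporter 4 (F511_16025) had 221, 238 and 234 FPKM at day 15, against 106, 184 and 162 FPKM at day 10. Both were higher in each replicate. Glutamine synthetase (F511_39523), which fixes ammonium, had 236, 419 and 320.0 FPKM at day 15, against 147, 169.8 and 196 FPKM at day 10 (log2 fold change 0.90, SE 0.24), and glutamate decarboxylase (F511_23720), which makes GABA, had 38.5, 59.2 and 35.3 FPKM at day 15, against 8.28, 16.3 and 13 FPKM at day 10, after 0.53, 0.43 and 0.76 FPKM at day 0. Aquaporin PIP1-2 (F511_09285), a water channel of the plasma membrane, had 1834, 1745 and 2211 FPKM at day 15, against 1485, 1506 and 1252 FPKM at day 10. The 67 starch and sucrose genes tested had a median log2 fold change of 0.055, close to the 0.051 of all genes. Of them, 4 were higher and 2 lower without overlap, the lower ones being beta-amylase 8 (F511_18783) and a sucrose nonfermenting 4-like gene (F511_14948). Of 56 nitrogen and amino acid transport genes tested, 3 were higher and 0 lower. The higher shares of both lists were near the background of 4.12%, that of lower genes being 2.08%.

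Circadian clock genes differed in a few members. Of 17 tested, a group chosen after the values were seen, 4 were higher and 1 was lower without overlap (background 4.12% and 2.08%), and the pair medians were 0.39, 0.34 and -0.098. APRR5 (F511_18110), a pseudo-response regulator of the clock, had 19.4, 15.2 and 10.6 FPKM at day 15, against 4.63, 3.56 and 5.91 FPKM at day 10, and APRR3 (F511_11458) had 38.4, 28.9 and 25.4 FPKM at day 15, against 22.8, 18.5 and 9.92 FPKM at day 10. Cyclic dof factor 3-like (F511_21745), a repressor of flowering genes that the clock controls, had 21.3, 14.3 and 14.2 FPKM at day 15, against 4.9, 2.68 and 11.3 FPKM at day 10. All 3 genes were higher in every day 15 library. The hour at which each library was sampled was not given, and its part in these values was not tested.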
